A study of Mus musculus with 12 samples.

Results

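The genes described here encode the protein core of the spliceosome, taken as every row of the RNA table whose symbol begins with Snrp, Lsm and a digit, Sf3a or Sf3b and whose mean over the 6 libraries was at least 10 normalized counts. The rule found 35 members among 25700 genes, and all 35 were among the 18074 genes tested. RNA-seq, and ATAC-seq, which reads out DNA open to a transposase, were run on mouse Th2 cells, a helper T cell type known for its part in allergy. The labels give the genotypes WT and cKO (a conditional knockout), and each assay has 3 libraries per genotype (12 libraries together). NRF2, the antioxidant transcription factor encoded by Nfe2l2, is named in the title of the series. The deleted gene, the Cre, and the strain, age and sex of the animals are not given in the labels, and the second group is therefore written as cKO-labelled. No label says that the libraries came from separate animals, so the p-values measure the spread between these libraries.

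Pre-mRNA splicing is carried out by small nuclear ribonucleoproteins (snRNPs), each an RNA wrapped in proteins. Sm proteins, encoded by Snrpb, Snrpd1, Snrpd2, Snrpd3, Snrpe, Snrpf and Snrpg, close into a ring around the U1, U2, U4 and U5 RNAs. The related LSm2 to LSm8 proteins form the ring on U6 RNA, and the same subunits with LSm1 in place of LSm8 form a cytoplasmic ring that helps to start messenger RNA decay. SF3A and SF3B are the parts of the U2 snRNP that hold the branch site of the intron.

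By limma over all genes, Snrpe fell 2.00-fold and Lsm6 2.13-fold between group means in cKO-labelled cells, and the other 33 members did not pass in either direction. Of the 16 Sm ring and LSm1 to LSm8 genes, 2 passed as lower (Snrpe and Lsm6), against 0.172% of all genes. Negative log2 changes were found for 15 of the 16, against 45.0% of all genes. Every cKO-labelled value lay below every WT value for 11, against 9.76% of all genes. Of the 9 SF3A and SF3B genes found by the rule, 6 had positive changes and 3 negative ones, none of them past the limma threshold. The authors' deposited table called 1 of the 9, Sf3b5, lower. Phf5a, an SF3B subunit that the rule by name leaves out, had a log2 change of -0.65 (limma adjusted p = 0.160) and was lower in the authors' deposited table. The change of Sf3b2 was 0.00 and turned negative in 4 of the 17 other settings and in the authors' table. Over all 35 members the median log2 change (of the normalized count plus 1, cKO minus WT) was -0.33, against 0.06 for all genes tested. The transcripts are measured in bulk, where fewer cells of a type and less RNA per cell cannot be told apart.

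The limma test adjusted over all 18074 genes called 2 of the 35 members lower and 0 higher, against 0.172% of all genes lower and 0.0332% higher. At an unadjusted p under 0.05, 14 members were lower and 2 higher, with 6.05% of all genes in each direction. The authors' deposited table put 8 of the 33 members with an adjusted p (24.2%) past 0.05 as lower and 0 as higher, against 3.9% and 1.78% of its 9263 genes; the 8 were Snrpe, Snrpg, Snrpd2, Snrpa1, Lsm3, Lsm6, Lsm8 and Sf3b5. Groups did not overlap for 16 members that were lower (45.7%) and 1 that was higher (2.86%), against 9.76% and 7.4% of all genes. Negative log2 changes were found for 25 of the members and for 45.0% of all genes. The 2 limma calls depended on single libraries and on the settings. No member passed when replicate 2 or 3 of WT, or replicate 1 or 3 of cKO, was left out. Of all genes, those fits called 1, 4, 3 and 3 lower, in that order. No member passed without the mean-variance trend (4 of all genes lower) or after quantile normalization (16 of all genes lower). Without cKO replicate 2, 4 members passed (Sf3b5 and Snrpg in addition), with 94 of all genes lower (0.52%). With sample quality weights, 12 members were called lower and 2 higher (Sf3b1, adjusted p = 0.0215, and Sf3a2, adjusted p = 0.0121), with 840 of all genes lower and 943 higher. The median of the members stayed between -0.38 and -0.29 over all 17 other settings.

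**Figure D1:**
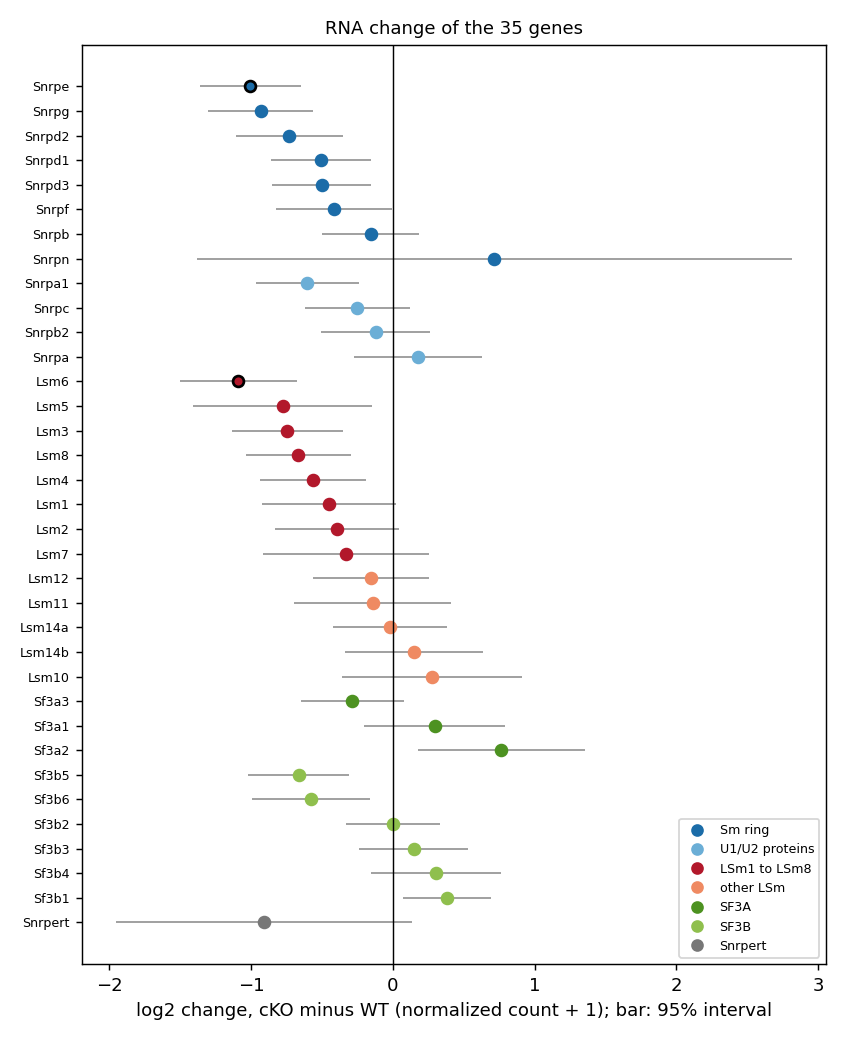
Log2 change in RNA, cKO minus WT, of the 35 members by role group (points, x axis in log2 units) with 95% limma intervals; black rims mark adjusted p under 0.05. Snrpe and Lsm6 carry rims, and the Sm and LSm1 to LSm8 genes other than Snrpn lie left of 0, while of the SF3 genes 3 lie left of 0, Sf3b2 at 0.00 and 5 right of it.

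Promoter sequences are shown for Snrpe, Snrpg and Lsm6, whose RNA differed most, and for Sf3a2 and Sf3b6, SF3 genes with changes of opposite sign, with the words of known factors that a search found in them. RefSeq windows on GRCm38.p6 (the mm10 assembly) were matched by symbol for 27 of the 35 members, each window holding 250 bases before and 50 after a start, and a gene with several starts is counted once if any of its windows holds the word (34 windows in all). The word CCGGAAG, recognised by ETS factors such as GABPA, was found on either strand in 11 of the 27 genes (40.7%) and 12 of their 34 windows, against 8.86% of all 32851 windows and 15.4% of the 14892 windows of tested genes. Those 11 were Lsm5, Sf3a1, Sf3a2, Sf3a3, Sf3b2, Sf3b3, Sf3b6, Snrpb2, Snrpc, Snrpe and Snrpg. They include genes with negative changes and genes with positive ones. The bases before the start are given 5′ to 3′ on the strand of the gene, with capitals for each word searched. The positions are chr1:133610281-133610530 for Snrpe (minus strand), chr6:86371290-86371539 for Snrpg (plus), chr8:78821153-78821402 for Lsm6 (minus), chr10:80798485-80798734 for Sf3a2 (plus) and chr12:4817358-4817607 for Sf3b6 (plus).
Snrpe: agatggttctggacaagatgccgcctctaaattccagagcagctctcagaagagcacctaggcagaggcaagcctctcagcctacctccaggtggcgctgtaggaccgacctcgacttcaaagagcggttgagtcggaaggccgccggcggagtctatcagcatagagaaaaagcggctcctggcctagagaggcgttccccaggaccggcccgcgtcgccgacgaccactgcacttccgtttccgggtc
Snrpg: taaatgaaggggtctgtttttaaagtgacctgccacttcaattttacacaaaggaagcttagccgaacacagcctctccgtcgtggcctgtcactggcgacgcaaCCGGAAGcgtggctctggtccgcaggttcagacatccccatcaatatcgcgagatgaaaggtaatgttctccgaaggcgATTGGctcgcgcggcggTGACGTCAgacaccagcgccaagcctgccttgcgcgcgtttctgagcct
Lsm6: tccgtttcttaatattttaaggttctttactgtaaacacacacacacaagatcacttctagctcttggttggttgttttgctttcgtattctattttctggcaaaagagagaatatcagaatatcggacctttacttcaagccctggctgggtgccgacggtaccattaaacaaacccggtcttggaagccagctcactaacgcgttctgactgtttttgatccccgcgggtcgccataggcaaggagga
Sf3a2: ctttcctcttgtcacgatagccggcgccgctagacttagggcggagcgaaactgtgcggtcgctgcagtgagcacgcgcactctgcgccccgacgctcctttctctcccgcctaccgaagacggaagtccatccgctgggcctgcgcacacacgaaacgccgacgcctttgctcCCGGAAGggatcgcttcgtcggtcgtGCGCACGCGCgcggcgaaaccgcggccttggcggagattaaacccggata
Sf3b6: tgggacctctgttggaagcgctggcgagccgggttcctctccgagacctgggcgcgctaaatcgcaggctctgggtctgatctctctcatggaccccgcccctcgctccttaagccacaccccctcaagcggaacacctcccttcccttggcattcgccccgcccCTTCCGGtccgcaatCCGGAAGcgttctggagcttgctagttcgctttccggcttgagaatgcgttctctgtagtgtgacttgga
In Snrpg the capitals mark, in order, the ETS word, a CCAAT box on the opposite strand and the cAMP response element TGACGTCA. Sf3a2 holds the ETS word and the NRF1 word, and Sf3b6 holds the ETS word once on each strand. In Snrpe the word lies after the start, in a pair of overlapping matches at bases 4 to 13, and in Lsm6 a CCAAT match lies at bases 6 to 10, so neither stretch has capitals.

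Other words were searched in the same windows on both strands. The NRF1 word (a pair of GCGC boxes) was in 5 of the 27 members (18.5%, against 4.6% of all windows and 8.69% of those of tested genes) and TGACGTCA in 3 (11.1%, against 1.79% and 2.81%). CCAAT was in 11 (40.7%, against 37.4% and 37.8%), the YY1 word AAGATGGC in 2 (7.41%, against 2.75% and 3.93%), TATAAA in 3 (11.1%, against 13.6% and 8.53%) and the E-box CACGTG in 1 (3.7%, against 7.15% and 9.33%). The antioxidant response element TGACNNNGC, the word bound by NRF2, was in 1 member, Lsm7 (3.7%, against 12.4% and 13.8%). The member percentages count genes with a match in any window, and the backgrounds count single windows, so they are unlike measures. Of the 34 member windows, 12 held CCAAT, 6 the NRF1 word, 3 TGACGTCA, 3 the YY1 word, 3 TATAAA, 2 CACGTG and 1 TGACNNNGC. TGACNNNGC and TGACGTCA share their first 4 letters, and the other words were counted independently of any overlap. These matches describe letters in a window and say nothing about binding.

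Snrpe, the Sm E subunit, whose gene lies at chr1:133603871-133610280, fell 2.00-fold. The 3 WT libraries held 1366, 1376 and 1518 normalized counts and the cKO-labelled ones 664, 832 and 637 (log2 change -1.01, SE 0.165, adjusted p = 0.0421). The lowest WT value was well above the highest cKO-labelled one, which came from cKO replicate 2. Snrpert, a pseudogene by its RefSeq type with a name derived from Snrpe, had 27.9, 69.3 and 82.0 in WT and 36.2, 28.7 and 22.0 in cKO-labelled cells (-0.91, adjusted p = 0.482), and its groups overlapped. Reads of a gene and a near-identical copy may be split between their rows, so both values are uncertain to that extent.

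Snrpg, the Sm G subunit, was next to it in size. Its values were 1337, 1548 and 1313 in WT and 657, 884 and 673 in cKO-labelled cells, with no overlap (log2 change -0.93, SE 0.172, adjusted p = 0.0546). Snrpd2, the Sm D2 subunit, was at 1256, 1865 and 1359 and at 905, 847 and 909 (-0.73, SE 0.175, adjusted p = 0.112), again without overlap. Both passed as lower in the authors' deposited table, with an adjusted p of 0.000195 for Snrpg and 0.00553 for Snrpd2. WT replicate 2 was the highest library for each, and without it the log2 change of Snrpd2 was -0.56 and that of Snrpg -0.86.

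The remaining ring subunits differed less. Snrpd1 and Snrpd3, which pair with D2 and B in the ring, differed by -0.51 (adjusted p = 0.223) and -0.50 (0.228) on the log2 scale, neither with overlap between groups. Snrpd1 was tight within each group, at 772, 743 and 786 in WT and 534, 548 and 537 in cKO-labelled cells. Snrpf (-0.42, adjusted p = 0.408) overlapped between groups. Snrpb, which encodes the B subunits, had 2334, 1827 and 2028 in WT and 1958, 1564 and 2035 in cKO-labelled cells, overlapping groups with a log2 change of -0.16 (95% interval -0.50 to 0.19). The 7 subunit genes other than Snrpn thus had changes from -1.01 to -0.16. Snrpn, the paralog of Snrpb known for its expression in brain, had 8.94, 1.28 and 46.5 in WT and 17.5, 10.6 and 21.1 in cKO-labelled cells. Its change of 0.72 has an interval of -1.38 to 2.81 and a ratio of group means in the other direction (1.15-fold lower), so no direction is given.

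Summed over its 8 genes, the Sm ring held 8981.5, 9325.6 and 8998.1 normalized counts in WT and 6161.8, 6092.5 and 6162.5 in cKO-labelled cells, a ratio of 0.674. Each WT sum lay above each cKO-labelled sum by more than the SD of either group (194 and 40.2).

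**Figure D2:**
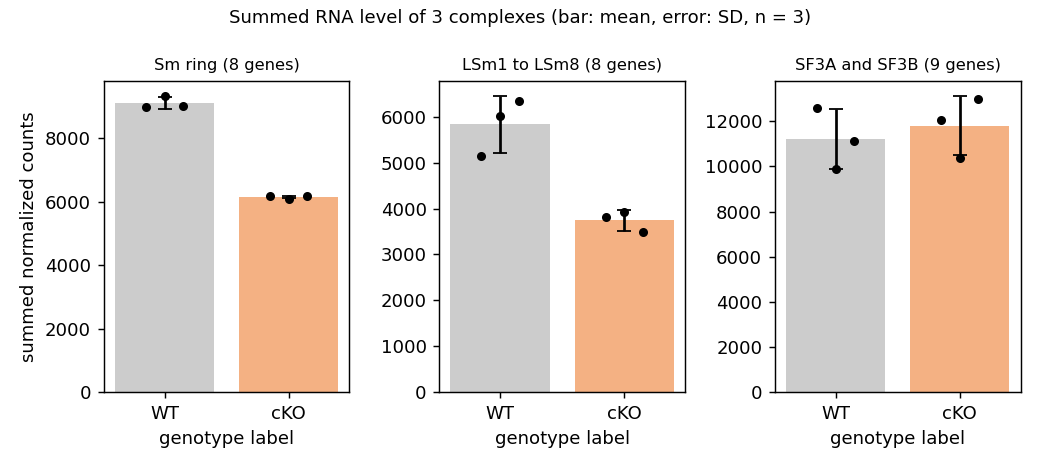
Summed normalized counts (y axis, from 0) of the Sm ring, LSm1 to LSm8, and SF3A with SF3B in each RNA library (points), with group means (bars) and SD (n = 3). The Sm and LSm sums do not overlap between genotypes, with ratios of 0.674 and 0.642, and the SF3 sums overlap, with a ratio of 1.05. Genes with higher counts weigh more in these sums. Of the 9 SF3 genes, 3 were lower and 1 higher without overlap, and 5 overlapped. Phf5a, an SF3B subunit outside the rule, is not in the SF3 sum.

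Among the proteins particular to U1 and U2, Snrpa1 (U2-A′) stood lowest. It was at 1245, 1612 and 1768 in WT and 949.6, 986 and 1078 in cKO-labelled cells, without overlap (log2 change -0.60, SE 0.168, adjusted p = 0.159; authors' deposited table, adjusted p = 0.0226). Snrpc (U1-C) had 647, 619 and 696 against 577, 492 and 582 (-0.25, adjusted p = 0.596), groups that lay apart by a small gap. Snrpa (U1-A) overlapped, at 557, 564 and 465 against 649, 450.4 and 723 (0.18, adjusted p = 0.778), and so did Snrpb2 (U2-B″, -0.12, adjusted p = 0.838). Snrpa1 and Snrpb2, whose proteins bind U2 RNA together, had intervals of -0.97 to -0.24 and -0.51 to 0.27. Their difference was not tested.

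All 8 genes of the LSm1 to LSm8 rings had negative log2 changes, from -1.09 to -0.33, as did 45.0% of all genes. For 6 of the 8 the groups did not overlap, against 9.76% of all genes that were lower without overlap. Lsm6, a subunit of both rings with its gene at chr8:78804868-78821152, fell 2.13-fold. It was at 601, 703 and 769.8 in WT and 279.8, 360.2 and 333 in cKO-labelled cells (log2 change -1.09, SE 0.192, adjusted p = 0.0438). With a pseudocount of 0.5 its adjusted p was 0.0504, just short of significance. Every WT value lay above every cKO-labelled value.

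Lsm3, also in both rings, had 628, 599 and 638 in WT and 406, 383 and 325 in cKO-labelled cells (log2 change -0.75, SE 0.181, adjusted p = 0.112). Lsm8, the subunit that marks the U6 ring, had 908, 908 and 987 against 546, 686 and 542 (-0.67, SE 0.170, adjusted p = 0.125). Both lay without overlap and passed in the authors' deposited table (adjusted p = 0.00661 and 0.0127). Lsm1, the subunit that marks the cytoplasmic decay ring, differed by -0.45 on the log2 scale (adjusted p = 0.439) with no overlap. Its interval of -0.92 to 0.02 overlaps that of Lsm8 (-1.03 to -0.30), and the difference between the rings was not tested.

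Lsm4 (-0.56, adjusted p = 0.200) had no overlap and was just short of the threshold in the authors' deposited table (adjusted p = 0.0502). Lsm5 had 231, 487 and 242 in WT and 207, 160.2 and 161 in cKO-labelled cells (-0.78, adjusted p = 0.305). Its change rested in part on WT replicate 2, without which it was -0.43. Lsm7 was at -0.33 (adjusted p = 0.668) and at -0.04 without that library, and Lsm2 was at -0.39 (0.467). The 8 genes together held 5137.1, 6014 and 6341.8 normalized counts in WT and 3824.4, 3917.4 and 3492.9 in cKO-labelled cells, a ratio of 0.642 without overlap.

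The LSm genes outside these rings had smaller changes of either sign. Lsm10 and Lsm11 belong to the U7 snRNP, which trims histone transcripts, and Lsm14a and Lsm14b act in translational repression. Their log2 changes ran from -0.15 to 0.28, the groups of all 5 overlapped, and none had an unadjusted p under 0.05. Lsm10 was at 83.0, 150.3 and 105 in WT and 137, 118 and 145 in cKO-labelled cells (0.28, adjusted p = 0.750). Lsm12 was at 470.3, 600.1 and 476 against 416, 453 and 516 (-0.15, adjusted p = 0.789), and Lsm14b at 254, 244 and 196 against 299.8, 246 and 227 (0.15, adjusted p = 0.838). The changes of the other two were -0.14 for Lsm11 (adjusted p = 0.869) and -0.02 for Lsm14a (0.978), whose sign turned in 5 other settings.

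In SF3B, the subunits found by the rule went in different directions. Phf5a, a further SF3B subunit, lies outside the rule and is given below with the listed factors. Sf3b5, a small subunit with a gene spanning 0.734 kb, was at 1410.5, 1475 and 1489 in WT and 829, 1115 and 839 in cKO-labelled cells (log2 change -0.67, SE 0.164, adjusted p = 0.117; authors' deposited table, adjusted p = 0.0121). Sf3b6, the small subunit next to the branch site (p14), had 662, 601 and 676 against 390.5, 382 and 542 (-0.58, SE 0.194, adjusted p = 0.245). Neither overlapped between groups. Sf3b1, the large subunit that clamps the branch site, had 2675, 2091 and 2376 in WT and 3233, 2852 and 3193 in cKO-labelled cells (0.38, SE 0.143, adjusted p = 0.303). It was the 1 member whose cKO-labelled values all lay above the WT values. Sf3b4 (0.30, adjusted p = 0.607), Sf3b3 (0.15, 0.783) and Sf3b2 (0.00, 0.998) overlapped. Single libraries moved these values: without cKO replicate 3 Sf3b4 was at 0.14 and Sf3b3 at 0.004, without cKO replicate 2 at 0.50 and 0.31, and without WT replicate 1 at 0.46 and 0.24. Without WT replicate 2 they were at 0.20 and 0.03.

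SF3A was as mixed. Sf3a2 had 358, 209 and 188 in WT and 429.95, 317 and 510.4 in cKO-labelled cells (0.77, SE 0.273, adjusted p = 0.279), overlapping through WT replicate 1 and cKO replicate 2. Sf3a1 overlapped too, at 945, 622 and 704 against 1051, 648 and 1125 (0.30, adjusted p = 0.647), with changes of 0.15 (without cKO replicate 3) to 0.55 (without cKO replicate 2) when 1 library was left out. Sf3a3 had 673, 614 and 624 against 519, 503 and 545, with no overlap and a change of -0.29 (adjusted p = 0.528). Replicate 2 was the lowest WT library for 7 of the 9 SF3 genes and the lowest cKO-labelled library for 8. The SF3 sums were 12569, 9894 and 11139.9 in WT and 12033.7, 10382.3 and 12990.1 in cKO-labelled cells, a ratio of 1.05 with overlap.

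**Figure D3:**
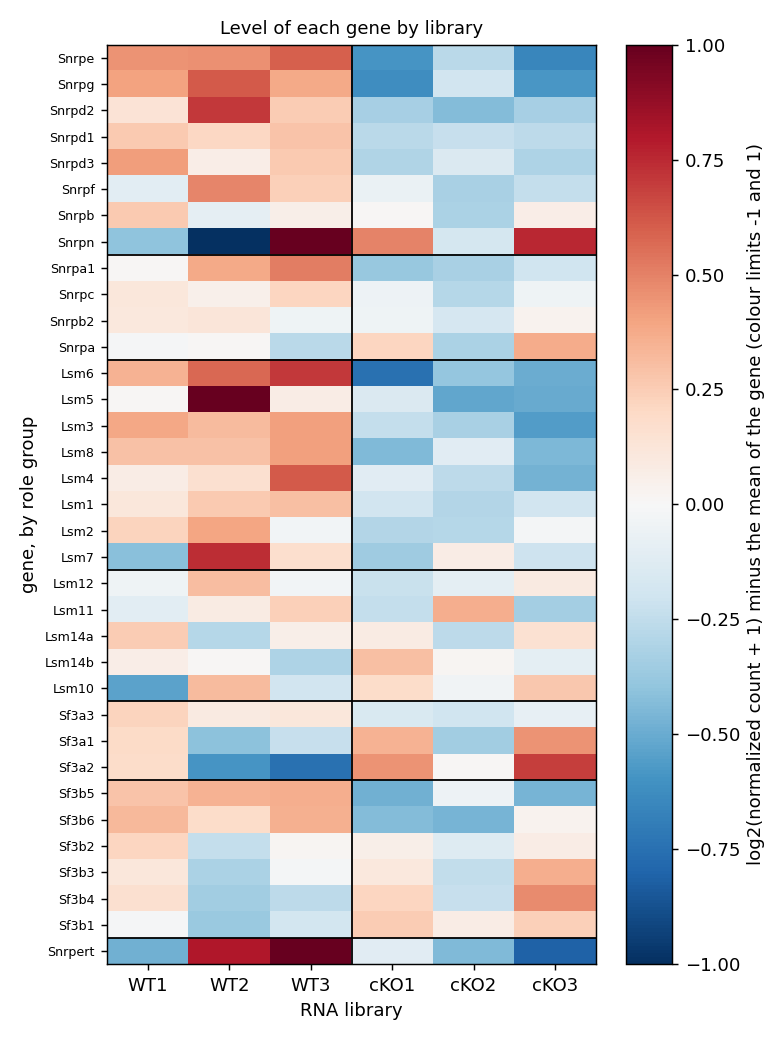
Log2 of the normalized count plus 1 of each member (rows, by role group) in each RNA library (columns), less the mean of the gene; colour runs from -1 (blue) to 1 (red), and larger deviations take the end colours. Most Sm and LSm1 to LSm8 rows are red in WT and blue in cKO-labelled cells, and SF3 rows are mostly paler or bluer in replicate 2 of either genotype.

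Gene span went with the changes. Spearman's rho between span and log2 change was 0.41 over the 35 members, 0.37 without Snrpn and 0.12 over the 15786 tested genes with a span, a description of genes that share these 6 libraries. The Sm ring and LSm1 to LSm8 genes had a median span of 6.61 kb and the SF3 genes of 17.6 kb, and over the whole of the tested genes it was 20.1 kb. All tested genes were cut into 5 span groups of about equal number. In the shortest group the median log2 change was -0.03, and the 7 members there had a median of -0.67; in the next group the values were -0.02 and -0.42 (15 members), and in the middle group 0.04 and -0.29 (9 members). In the next longer group they were 0.10 and 0.15 (3 members), and in the longest 0.15 and 0.72 (Snrpn alone). With the trend of each library with span removed, the median of the members was -0.30. In that fit 3 were called lower, Snrpe (adjusted p = 0.0276), Lsm6 (0.032) and Snrpg (0.0424), against 0.507% of the 15786 genes with a span. Snrpg passed equally when the test was only limited to genes with a span (adjusted p = 0.0452), without that removal. Among the shorter SF3 genes, Sf3b5 (0.734 kb) and Sf3b6 (10.1 kb) had negative changes and Sf3b4 (5.06 kb) and Sf3a2 (6.19 kb) positive ones.

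**Figure D4:**
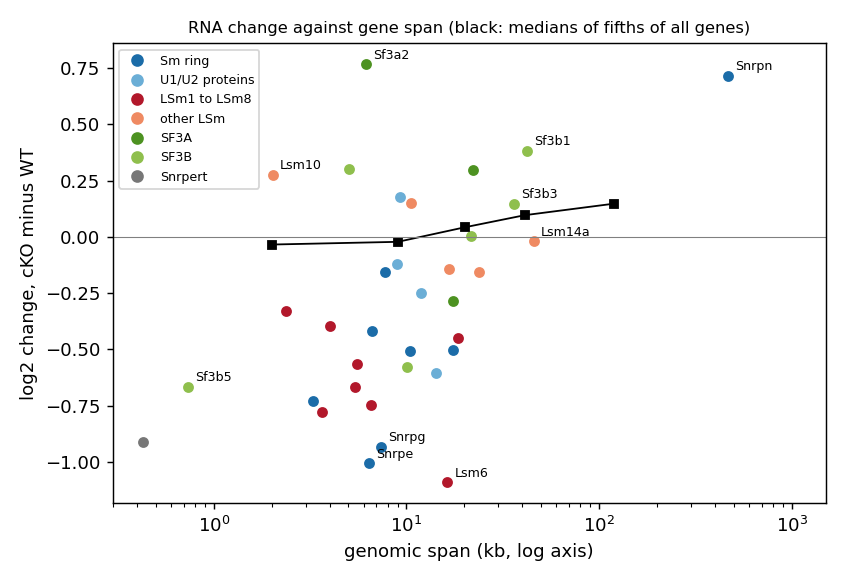
Log2 change, cKO minus WT (y axis), against genomic span in kb (log x axis) for the 35 members by role group; black squares join the medians of the 5 span groups of all tested genes. Members in the 3 shortest groups mostly lie below the black line, and Sf3a2, at 6.19 kb, lies at 0.77.

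Genes outside the rule, taken from lists of known factors, had a smaller median change than the members, with a range of -1.52 to 0.85. These lists cover splicing, Sm assembly, histone transcript processing and messenger RNA decay. Over their 147 tested genes that are not members, 2 fell and 0 rose by limma, against 0.172% and 0.0332% of all genes. The authors' deposited table called 10 of the 142 with an adjusted p lower and 1 higher, against 3.9% and 1.78%. The 1 higher was Cnot6l, from the decay list. Negative log2 changes were found for 90 of the 147, against 45.0% of all genes, and the median was -0.10. Without overlap between groups, 34 of the 147 were lower and 6 higher, against 9.76% and 7.4% of all genes. At an unadjusted p under 0.05 by limma, 32 were lower and 10 higher, against 6.05% of all genes in each direction. Proteins of the same snRNPs outside the rule (27 tested, among them the tri-snRNP proteins) had a median of -0.27 with 20 negative and none past the limma threshold (7 were lower and 1 higher at an unadjusted p under 0.05). Among them Phf5a, itself a subunit of SF3B, had means of 1128 ± 254 (WT) and 706 ± 31.4 (cKO-labelled) (SD, n = 3 each; log2 change -0.65, limma adjusted p = 0.160), and it was the 1 gene of the list called lower in the authors' deposited table (adjusted p = 0.0210).

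The SMN complex and its partners load Sm proteins onto the snRNAs. Of 16 tested, 14 had negative changes, against 45.0% of all genes. None passed limma, and the median was -0.25. At an unadjusted p under 0.05, 5 were lower and 0 higher, against 6.05% of all genes in each direction. The authors' deposited table called 2 lower, Gemin6 (adjusted p = 0.0281) and Gemin2 (0.0435). By limma, Gemin6 was at 355 ± 17.1 and 219 ± 4.31 (-0.69, adjusted p = 0.173) and Gemin2 at 182 ± 11.7 and 102 ± 1.95 (-0.83, adjusted p = 0.183), both without overlap. In the exon junction complex, laid down on spliced transcripts, 1 of 9 fell: Rbm8a, from 2299.97 ± 121 to 1181 ± 295 (-0.99, adjusted p = 0.0466). Its partner Magoh had 922 ± 43.6 and 516 ± 18.1 (-0.84, adjusted p = 0.0634). The median of that list was -0.17, and the authors' deposited table called 3 of the 9 lower.

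Among 24 hnRNP genes, which coat pre-mRNA, 1 fell, Hnrnpm, from 5299 ± 518 to 3060.2 ± 444 (-0.80, adjusted p = 0.0499), and the median was -0.06. Among 14 SR genes, which promote exon recognition, none passed limma (5 were lower and 0 higher at an unadjusted p under 0.05) and the median was -0.19. Srsf2 was at 3522 ± 382 and 2215 ± 171 (-0.67, limma adjusted p = 0.0792). The authors' deposited table called 2 lower, Srsf2 (adjusted p = 0.00265) and Srsf3 (0.0433). Factors of U2 recruitment and of the later splicing steps (25 tested, 0 called by limma or in the authors' deposited table, 6 lower and 1 higher at an unadjusted p under 0.05) had a median of -0.04, with U2af1 at -0.51 (limma adjusted p = 0.206). Minor spliceosome proteins (12 tested, 0 called by limma, 1 lower and 0 higher at an unadjusted p under 0.05) had a median of 0.01, with Zcrb1 at -0.73 (limma adjusted p = 0.129). The authors' deposited table called Zcrb1 lower (adjusted p = 0.0148). Genes of U7 and histone transcript processing (9 tested, Lsm10 and Lsm11 among them, 0 called by either) had a median of -0.12. Of these 9, 1 was lower and 0 higher at an unadjusted p under 0.05. For each list, the share of all genes at that unadjusted threshold was 6.05% in each direction.

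The decapping and decay factors that work with the LSm1 ring had mostly positive changes. Of 17 tested, 13 had positive changes, as did 9935 of the 18074 genes tested. None passed limma, and the median was 0.16. At an unadjusted p under 0.05, 5 were higher and 0 lower, against 6.05% of all genes in each direction. The authors' deposited table called 1 higher, Cnot6l (adjusted p = 0.0360). Cnot6l, a deadenylase subunit, was at 577 ± 172 and 960.5 ± 87.4 (0.78, limma adjusted p = 0.173), without overlap. Patl1, which binds the LSm1 ring, was at 162 ± 33.9 and 281 ± 73.2 (0.77, limma adjusted p = 0.266). Its groups lay barely apart, with WT replicate 1 at 198.1 and cKO replicate 2 at 199.9. Of all genes, 7.4% were higher without overlap.

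Measures of the whole libraries are given by genotype, and their part in these results was not tested. The totals and the mitochondrial, ribosomal protein and T cell marker shares overlapped between genotypes. The members' share and the rho with span did not. RNA totals ran from 6431081 to 7372007 normalized counts, and raw depth is unknown. Members took 0.434% to 0.454% of the total in WT and 0.376% to 0.384% in cKO-labelled cells. Spearman's rho of each library's deviation with span ran from -0.11 to -0.03 in WT and from -0.01 to 0.11 in cKO-labelled cells. Mitochondrial transcripts took 2.15% to 3.35% in WT and 2.91% to 4.47% in the others, and ribosomal protein genes 9.75% to 12.1% and 8.32% to 10.1%. The 13 T cell markers, Cd4 and Cd3e among them, took 0.447% to 0.471% in WT and 0.441% to 0.479% in the others. Lists of other cell types took at most 0.00825% each in any library. Of the 13, 6 changes were negative and 7 positive, and none passed limma. Without overlap 4 were lower and 1 higher, against 9.76% and 7.4% of all genes. Lat (-0.46, limma adjusted p = 0.145) and Cd3d (-0.46, 0.206) were among those lower. The authors' deposited table called 1 lower, Lat (adjusted p = 0.0292). Nfe2l2 was higher in cKO-labelled cells (158 ± 11.4 and 390.3 ± 63.2), and the Y-linked Ddx3y was at 132 ± 8.56 in WT and listed at 0 in each of the others, so the sex of the source animals and the genotype cannot be told apart.

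Open chromatin at the members' starts was measured as the height, in tags per 10000000, of the highest HOMER peak in each merged region. A region called in all 6 lists lay within 1 kb of the start of 26 members and of an end of 7 more whose strand was not given in the promoter table; Snrpn and Snrpert had none. These 33 regions were 0.927 to 4.4 kb long with heights of 19.9 to 552.1, and 7 of them also held the start of another gene.

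Whether the height at these starts differed between genotypes depended on the scaling. With the median of each library subtracted, limma called 24 of the 33 regions higher (72.7%) and 0 lower, against 59.2% and 1.2% of the 10585 regions within 1 kb of any gene start and 28.0% and 5.48% of all 33531 regions. Without subtraction 0 and 0 were called, against 2.77% and 2.09% of start regions. After quantile normalization 1 and 1 were called, against 5.92% and 2.84%. After cyclic loess 1 and 1 were called, against 6.49% and 3.8%. Among the 9 member regions left when only peaks with a score of at least the median were kept, 5 and 0 were called, against 58.8% and 1.36% of start regions so filtered. The median log2 change of the 33 was 0.611 with medians subtracted, 0.305 without and 0.145 after quantile normalization, beside 0.523, 0.217 and 0.122 for all start regions. WT replicate 2 was the lowest WT library at all 33 regions. It had 25.22% of its tags in peaks, against 34.87% to 38.28% in the other 5. Without it 22 of the 33 regions were called higher and 0 lower, beside 8759 and 1342 of all 33531 regions.

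The region called higher after both quantile normalization and cyclic loess was that of Lsm6, whose RNA was lower. It lies at chr8:78820454-78821394 across the start and most of the upstream bases printed above, and its heights were 60.8, 40.9 and 69.1 in WT and 78.0, 94.5 and 70.0 in cKO-labelled cells, without overlap. Its log2 change was 0.83 with medians subtracted (SE 0.147, adjusted p = 0.000539), 0.58 after quantile normalization (adjusted p = 0.041) and 0.52 without subtraction (adjusted p = 0.141). Snrpe, the other gene that fell, had a region at chr1:133609507-133610900 with heights of 148.3, 82.7 and 172.7 in WT and 188.3, 192.3 and 210.3 in cKO-labelled cells, also without overlap. Its log2 change was 0.92 with medians subtracted (adjusted p = 0.000226), 0.34 after quantile normalization (adjusted p = 0.120) and 0.61 without subtraction (adjusted p = 0.0729). Lower RNA of these 2 genes thus did not go with lower peak height at their starts under these scalings.

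Lsm14a, whose RNA did not pass in any setting, had the region called lower after quantile normalization. Its heights at chr7:34387176-34391399 were 199.7, 135.9 and 179.5 in WT and 156.6, 174.6 and 147.1 in cKO-labelled cells, which overlapped. The log2 change was -0.38 after quantile normalization (adjusted p = 0.0289) and 0.21 with medians subtracted (adjusted p = 0.108). At Snrpg, heights of 105.3, 61.1 and 96.5 in WT and 93.1, 80.9 and 93.5 in cKO-labelled cells overlapped, with changes of 0.37 with medians subtracted (adjusted p = 0.04998) and -0.006 after quantile normalization. At Sf3b1 they were 214.8, 103.4 and 132.2 against 196.6, 196.3 and 178.3, overlapping through WT replicate 1. Before any subtraction, heights did not overlap between groups, with higher cKO-labelled values, at 14 of the 33 regions, against 30.3% of all start regions and 13.6% of all regions. In the other direction this held at 0 of the 33, against 5.94% and 21.8%.

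**Figure D5:**
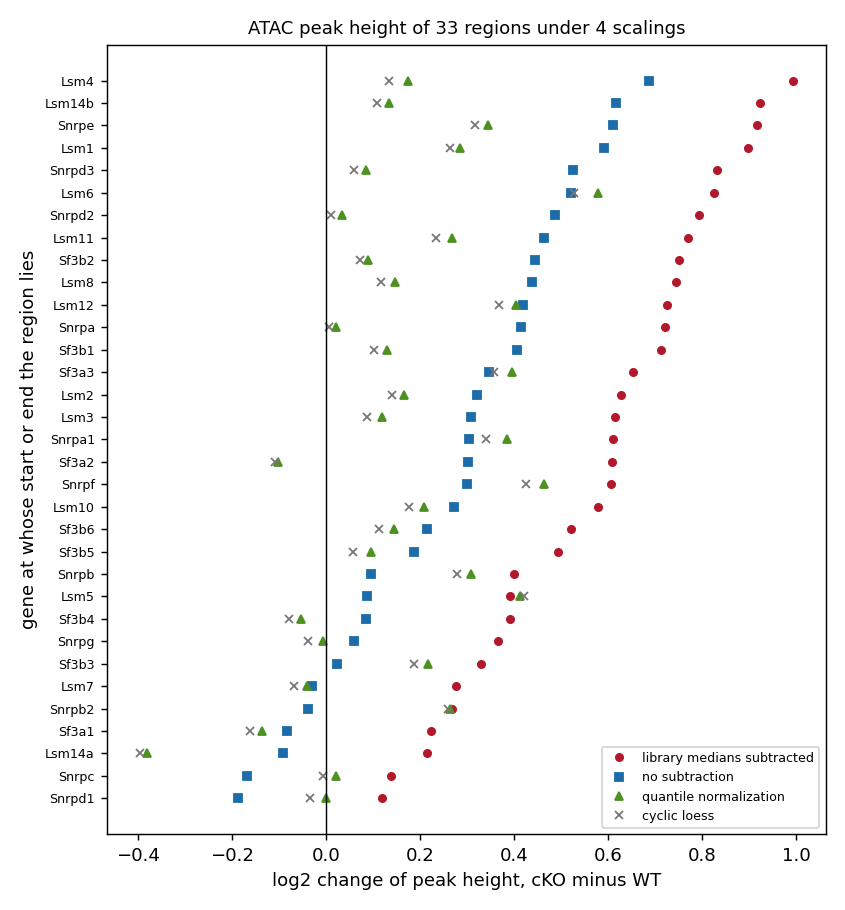
Log2 change in ATAC peak height, cKO minus WT (x axis), of the 33 regions at member genes (rows) under 4 scalings (markers). With library medians subtracted all 33 lie right of 0; without subtraction 6 and after quantile normalization 7 lie left of it, and Lsm6 stays at 0.52 or more under all 4.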

How the data were processed

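RNA-seq and ATAC-seq of WT and cKO Th2 cells were compared, with 3 libraries of each genotype in each assay and groups taken from the labels. The deposited RNA table holds 1 signal value per gene and library, the authors' normalized counts, which are not whole reads, so no count model was used. It also holds the authors' log2 changes and p-values, copied here by name. The submitters' processing notes name, without roles, Bowtie2 2.3.5.1 and HOMER 4.11, then RSEM 1.3.3 and STAR, also edgeR and DESeq2, and the mm10 build. Raw depth is not known from normalized values. Per the file headers, the ATAC lists are HOMER peaks called in each library (Poisson p threshold 0.001, at most 1 tag per bp), with a signal of tags per 10000000, a score and a clonal fold (ratio) for each peak, all the authors' own. ATAC libraries held 13149952 to 18327127 tags.

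Genes with a mean of at least 10 were tested with limma 3.58.1 (R 4.3.3; mean-variance trend) on log2 of the normalized count plus 1, cKO minus WT, with Benjamini-Hochberg adjustment at 0.05; a fold on this scale understates changes of low genes. Fold values in words are ratios of group means. ATAC peaks sharing 1 bp were merged, and log2 of the height plus 1, less each library's median, was tested with limma over the 33531 regions with a peak in all 6 lists. Gene spans, types and promoters came from RefSeq on GRCm38.p6, matched by symbol for 82.8% of genes. The limma steps were tested on simulated data. Members, gene lists and tests were chosen with earlier results of these data known. Given per library were members past 0.05 in limma or in the authors' table, the 3 smallest p-values of each role group, the highest member by mean, Snrpb and Snrpn, and also Snrpd1, Lsm5 and Snrpert, chosen after their values were seen; from each list, genes past 0.05 and up to 2 with the smallest p. ATAC heights are given per library for 5 regions, chosen after their values were seen, and otherwise as ranges. Alternatives covered pseudocount, filter, scaling, span, weights, replicate block and each library left out.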

Additional observations from a re-analysis of the deposited data

How the results depend on the processing

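In RNA, 37 genes and 2 members were called. With the span trend removed 92 genes and 3 members passed, against 44 and 3 when only genes with a span were tested. Without the mean-variance trend 6 genes and 0 members passed. Sample quality weights gave 1783 genes (840 lower, 943 higher) and 14 members (12 lower, Sf3b1 and Sf3a2 higher). In that fit cKO replicate 1 had a weight of 7.43. By the authors' adjusted p, 526 genes and 8 members passed. A pseudocount of 0.5 left 30 genes and 1 member, and quantile normalization 33 genes and 0 members. Leaving out each library gave 1 to 150 genes and 0 to 4 members. There were 0 members without WT replicate 2 or 3 or cKO replicate 1 or 3, where 1, 5, 3 and 3 genes passed. The causes were not tested. The median log2 change of the members kept its sign in the settings run, between -0.382 and -0.287. The log2 change of Sf3b2 was -0.026 with span removed, -0.004 in the authors' table and -0.115 to 0.11 with a library left out. That of Lsm14a was 0.015 at equal totals, 0.056 with weights and -0.168 to 0.108 with a library left out, and that of Snrpn -0.369 to 1.822.

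Same-numbered RNA libraries had correlated deviations of 0.116, 0.206 and -0.055, and WT replicate 1 correlated more with cKO replicate 3 (0.215), so the numbers were not taken as pairing; in ATAC the values were -0.027, -0.005 and 0.009. With a replicate block 122 genes and 3 members (Snrpg added) were called in RNA. In ATAC, 24 of the 33 regions were called higher as before, beside 9364 of all 33531 regions.

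Of the 33 ATAC regions, 24 were called with library medians subtracted and 0 without subtraction. After cyclic loess 2 were called, 1 in each direction (6.49% of start regions higher, 3.8% lower), and after quantile normalization also 2, 1 in each direction (5.92% and 2.84%). Of the 9 left with scores of at least the median, 5 were called higher and 0 lower (58.8% and 1.36% of start regions so filtered). Leaving out each library gave 21 to 24 of the 33 higher, beside 7953 to 8759 of all 33531 regions. Log2 changes turned negative after cyclic loess at Lsm7 (-0.067), Lsm14a (-0.396), Sf3a1 (-0.162), Sf3a2 (-0.109), Sf3b4 (-0.078), Snrpd1 (-0.034), Snrpg (-0.038) and Snrpc (-0.006). They did so without subtraction at Lsm7 (-0.03), Lsm14a (-0.092), Sf3a1 (-0.083), Snrpd1 (-0.187), Snrpb2 (-0.039) and Snrpc (-0.168), and after quantile normalization at Lsm7 (-0.041), Lsm14a (-0.382), Sf3a1 (-0.137), Sf3a2 (-0.102), Sf3b4 (-0.053), Snrpd1 (-0.001) and Snrpg (-0.006).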
